A study of Mus musculus with 26 samples.

Results

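Pax-, Six- and Eya-family genes encode the upstream transcription factors and cofactors of the muscle progenitor programme. Here 9 of them, Pax3, Pax7, Six2, Six4, Six5, Eya1, Eya2, Eya3 and Eya4, were followed by name among the 55341 genes counted in 26 RNA-Seq libraries of C2C12 cells, an established mouse myoblast line whose cells stop dividing and form myotubes when serum is lowered. The genes were chosen by family and not by any value, although earlier results of these counts were known. Of the 9, 6 had enough reads to be tested in both experiments (Pax7, Six4, Six5, Eya1, Eya3 and Eya4), and 3 lay at or near the floor of 3 counts (Pax3, Six2 and Eya2).

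The study asked how SMYD3, a SET and MYND domain lysine methyltransferase, affects early myogenic differentiation. In the siRNA experiment, cells received a control siRNA (siCtrl) or an siRNA against SMYD3 (siSMYD3#1, siSMYD3#2), and RNA was taken before (0 h) and at 24 h of differentiation, with 3 libraries in each of these groups. The study transfected its siRNAs again when differentiation was induced, and the part of this in changes from 0 h to 24 h was not tested. Each siRNA group held 1 TRIzol and 2 NucleoSpin libraries, so that extraction was balanced across groups. In the overexpression experiment, SMYD3 CL5 cells, which carry SMYD3 from the pREV retroviral vector, were compared with cells carrying Empty vector (pREV) at the same times, with 2 libraries in each group, all extracted with TRIzol. SMYD3 CL5 is a subclone grown from transduced cells, so clone and transgene cannot be told apart. Replicates are numbered within a group in the order of the public records. The study calls them biological replicates, but nothing in the sample labels says whether they came from separate cultures. The p-values therefore measure the spread between these libraries. Values are listed in replicate order, where replicate 1 is the TRIzol library in every siRNA group except siSMYD3#2 at 24 h, in which it is replicate 3.

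Pax3 and Pax7 are paired-box factors that mark muscle progenitors, Pax3 in the embryonic dermomyotome and limb and Pax7 in the satellite cells of postnatal muscle. Six-family proteins are homeodomain factors that bind MEF3 sites, among them one in the promoter of Myog (myogenin). Eya proteins do not bind DNA themselves and act as coactivators of Six-family proteins, with a phosphatase domain of their own, whereas Dach and Groucho proteins serve as corepressors. Together these factors stand above Myf5, Myod1 and Myog in the myogenic hierarchy.

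Totals per library ranged from 14315193 to 60398170 counts in the siRNA experiment and from 21124675 to 67853386 in the overexpression experiment. The myoblast markers Myod1, Myf5, Des and Cdh15 exceeded 3 counts in all 26 libraries, while Adipoq, Sox10 and Adgre1, which define fat, neural crest and macrophage cells, did so in 0. Smyd3 checked the labels. It fell under siSMYD3#2 by 1.41 (SE 0.16) on the log2 scale at 0 h (edgeR adjusted p = 0.000107) and by 1.51 (SE 0.17) at 24 h (edgeR adjusted p = 5.06e-05). The siSMYD3#1 libraries gave Smyd3 differences from siCtrl of only -0.16 (SE 0.16) and -0.24 (SE 0.16), with edgeR adjusted p of 0.785 and 0.414. In SMYD3 CL5 the Smyd3 level exceeded that of pREV by 0.29 (SE 0.27) at 0 h and 0.36 (SE 0.27) at 24 h, with edgeR adjusted p of 0.593 and 0.671. The knockdown and the overexpression named by the labels thus did not pass this test at the RNA level for siSMYD3#1 and SMYD3 CL5, and these names below mean the libraries labelled so. The study itself followed Smyd3 by qPCR and SMYD3 protein by western blot in siSMYD3 cells. For the clones it reported stable expression of the tagged protein, by western blot and immunofluorescence. How far counts over the Smyd3 gene include the tagged cDNA was not tested. Fat, bone and macrophage lists were not silent throughout, since Pdgfra, Ly6a, Pparg, Sox9, Runx2 and Cd68 exceeded 3 counts in all 26 libraries.

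Per length, Eya3 and Eya4 were the most abundant of the set. Levels are given as CPM, a gene's counts relative to the library total, scaled by TMM within each experiment, and different genes were compared only as CPM per kb of merged exons. Averaged over the 26 libraries, Eya3 stood at 13 CPM per kb and Eya4 at 10, followed by Six4 at 3.81, Six5 at 2.95, Eya1 at 2.86 and Pax7 at 0.358. Eya3 exceeded Eya4 per kb in 22 of 26 libraries, and Eya4 exceeded Six4 in 26. Six4 exceeded Six5 in 23 libraries, whereas Six5 and Eya1 changed places, each above the other in 13, and could not be ordered. Pax7 was lower than Eya1 in all 26 libraries, by a median of 12.1 times per kb. Pax3 (0.0186 CPM per kb) and Eya2 (0.0134 CPM per kb) came far below these. In these bulk libraries, fewer cells expressing a gene and less RNA per cell cannot be told apart.

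**Figure D1:**
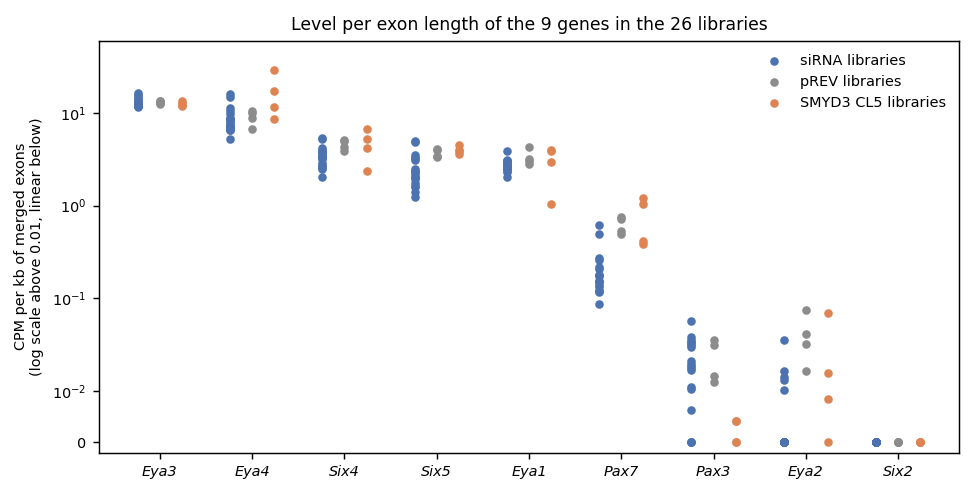
Level of each of the 9 genes in CPM per kb of merged exons (vertical axis, logarithmic above 0.01 and linear below), with 1 point per library for the siRNA, pREV and SMYD3 CL5 libraries, whose CPM were scaled separately in the 2 experiments. Eya3 and Eya4 sit highest, Pax7 lies between 0.0863 and 1.21, and Six2 is at 0 in all 26 libraries.

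Six2, known chiefly from nephron progenitors, was at 0 counts in all 26 libraries, which allows a level of up to 0.00365 CPM over their summed depth. Pax3 (chr1:78101267-78197134, minus strand, GRCm38) held between 0 and 12 counts per library and was at 3 or fewer in 14 of 26. In siCtrl it gave 0, 6 and 12 counts at 0 h and 0, 0 and 1 at 24 h, the 0 h TRIzol library being the one at 0. The pooled ratio of 0 h over 24 h was 10.6, with an exact interval of 1.68 to 442. In siSMYD3#1 the 24 h libraries held 6, 3 and 5 Pax3 counts against those 0, 0 and 1 in siCtrl, a ratio of 12.5 with an interval of 1.91 to 530. In siSMYD3#2 the 24 h libraries held 2, 2 and 1. Across the siRNA groups Pax3 thus stayed at 12 counts or fewer. The pREV cells gave 7 and 8 counts at 0 h and SMYD3 CL5 1 and 1, so that Pax3 was higher in pREV by a ratio of 8.09 (interval 1.88 to 72.9). At 24 h the pREV libraries held 4 and 5 Pax3 counts and the SMYD3 CL5 libraries 0 and 0, for which the exact lower limit of the ratio was 1.4. These exact 95% intervals cover counting error only, with reads pooled over the libraries of a group, and Pax3 did not pass the filter on low counts.

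Eya2 (chr2:165595032-165771727, plus strand) was listed at 0 in 14 of 26 libraries and at 3 or fewer in 23. All 12 NucleoSpin libraries but 1 were at 0, and that one held 1 count. The only libraries over 3 Eya2 counts were both pREV 24 h libraries, with 10 and 8, and SMYD3 CL5 0 h replicate 2, with 8. The pREV 0 h libraries held 3 and 2, and the pooled ratio of 24 h over 0 h was 2.38 with an interval of 0.852 to 8.2, which includes no difference. Against the 0 and 1 counts of SMYD3 CL5 at 24 h, pREV was higher by a ratio of 12.7 (interval 2.01 to 531).

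The promoters of Six4 and Six5 are shown because these were the genes of the set whose level rose during differentiation. RefSeq sequence on GRCm38.p6 was at hand for 6 of the 9 genes, from 250 bases before the start site to 50 after it. Six4 lies at chr12:73099609-73113456 on the minus strand and its promoter window at chr12:73113376-73113675. Six5 lies at chr7:19094594-19098549 on the plus strand, with its window at chr7:19094294-19094593. The RefSeq start lies 31 bases from the GENCODE gene start for Six4 and 50 bases for Six5. Capitals mark CCCTCC on either strand, a hexamer reported as bound by SMYD3.
Six4 promoter: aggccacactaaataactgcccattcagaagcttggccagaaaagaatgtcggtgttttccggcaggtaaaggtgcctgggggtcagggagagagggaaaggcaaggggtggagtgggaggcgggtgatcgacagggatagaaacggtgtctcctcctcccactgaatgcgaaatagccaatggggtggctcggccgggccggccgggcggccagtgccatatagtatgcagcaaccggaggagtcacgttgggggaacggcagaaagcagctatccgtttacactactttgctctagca
Six5 promoter: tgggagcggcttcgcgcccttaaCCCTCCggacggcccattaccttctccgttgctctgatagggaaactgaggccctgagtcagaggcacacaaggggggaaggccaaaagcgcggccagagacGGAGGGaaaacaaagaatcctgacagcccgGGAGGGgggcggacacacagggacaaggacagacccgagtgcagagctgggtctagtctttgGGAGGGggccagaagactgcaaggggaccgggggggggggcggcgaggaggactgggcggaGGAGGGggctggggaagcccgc
The Six4 window held 0 matches to CCCTCC and the Six5 window 5, at positions -227, -125, -95, -33 and 29 from the start site. Of 32851 promoters of the same length, 39.2% held at least 1 match and 0.858% held 5 or more. Neither window held an E-box (CANNTG), found in 72.3% of all promoters, or the MEF3 letters TCAGGTTTC, found in 0.429%. The other windows at hand held CCCTCC too, with 2 matches for Pax7 and 1 each for Six2, Eya3 and Eya4. GC content was 66% in the Six5 window and 57.3% in that of Six4, and the shares over all promoters were not matched for it. All of these are counts of letters in a window and say nothing about binding.

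Both tested Six-family genes were higher at 24 h than at 0 h in siCtrl cells. Six4, a factor that acts with other Six-family proteins in the limb and somite, gave 41.6, 34.2 and 27.9 CPM at 0 h in siCtrl. At 24 h its siCtrl libraries stood at 58.0, 41.4 and 45.1 CPM. The TRIzol library was the highest at each time, and the lowest 24 h library fell just short of the TRIzol library at 0 h, so that the groups overlapped. Six4 rose by 0.48 (SE 0.12, 1.40-fold) on the log2 scale (edgeR adjusted p = 0.00263).

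Six5, the neighbour of the myotonic dystrophy kinase gene Dmpk, stood at 6.92, 4.21 and 4.90 CPM in the siCtrl libraries at 0 h. At 24 h it reached 14.6, 6.05 and 7.38 CPM, again highest in the TRIzol library. Six5 rose by 0.74 (SE 0.15, 1.67-fold; edgeR adjusted p = 0.000504). The rest of the set did not pass the threshold of an adjusted p under 0.01: of the 6 tested genes 2 were called, against 29.4% of all 15820 genes tested in this comparison, a share close to that background. Without the extraction covariate both calls were lost, at log2 differences of 0.48 and 0.81 and edgeR adjusted p of 0.165 and 0.152. Both were also lost without siCtrl 24 h replicate 1, the TRIzol library, at 0.46 for Six4 and 0.56 for Six5 (edgeR adjusted p of 0.0112 and 0.0106). Six4 alone was lost without siCtrl 0 h replicate 1 or 3 or 24 h replicate 3, at 0.44, 0.40 and 0.44, and with all 26 libraries in 1 fit, at 0.47 (edgeR adjusted p = 0.132). In NucleoSpin libraries alone Six5 was lost, at 0.52 (edgeR adjusted p = 0.0238).

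Pax7 (chr4:139737062-139833528, minus strand) was present at a low level in every library, with 10 to 340 counts. In siCtrl it stood at 1.29, 0.768 and 0.909 CPM at 0 h and at 3.66, 1.05 and 1.502 CPM at 24 h. The 24 h TRIzol library exceeded all other siRNA libraries. The log2 difference was 0.95 (SE 0.35), with an interval of 0.28 to 1.63, and did not pass (edgeR adjusted p = 0.0336).

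No tested Eya gene passed the threshold in siCtrl. Eya1 (chr1:14168954-14310235, minus strand), whose protein is a Six-family coactivator of early myogenesis, stood at 21.1, 24.2 and 23.8 CPM at 0 h and 30.2, 21.8 and 23.9 CPM at 24 h, a log2 difference of 0.13 (SE 0.13). Eya3 (chr4:132638987-132724765, plus strand), the most evenly expressed gene of the set, lay between 66.2 and 91.6 CPM in all 26 libraries. Its siCtrl values were 84.5, 66.2 and 67.8 CPM at 0 h and 67.7, 73.8 and 74.1 CPM at 24 h, a difference of -0.01 (SE 0.11). For Eya4 (chr10:23102963-23350786, minus strand), a family member linked to hearing loss and cardiomyopathy, they were 83.9, 67.6 and 61.3 CPM at 0 h against 139, 64.8 and 69.2 CPM at 24 h. The Eya4 difference of 0.29 (SE 0.16) came mainly from the TRIzol library and did not pass (edgeR adjusted p = 0.148). For Eya3 the interval was -0.23 to 0.21, for a change averaged over the extraction methods. Within them the Eya3 log2 ratio was -0.32 in TRIzol and 0.14 in NucleoSpin libraries.

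**Figure D2:**
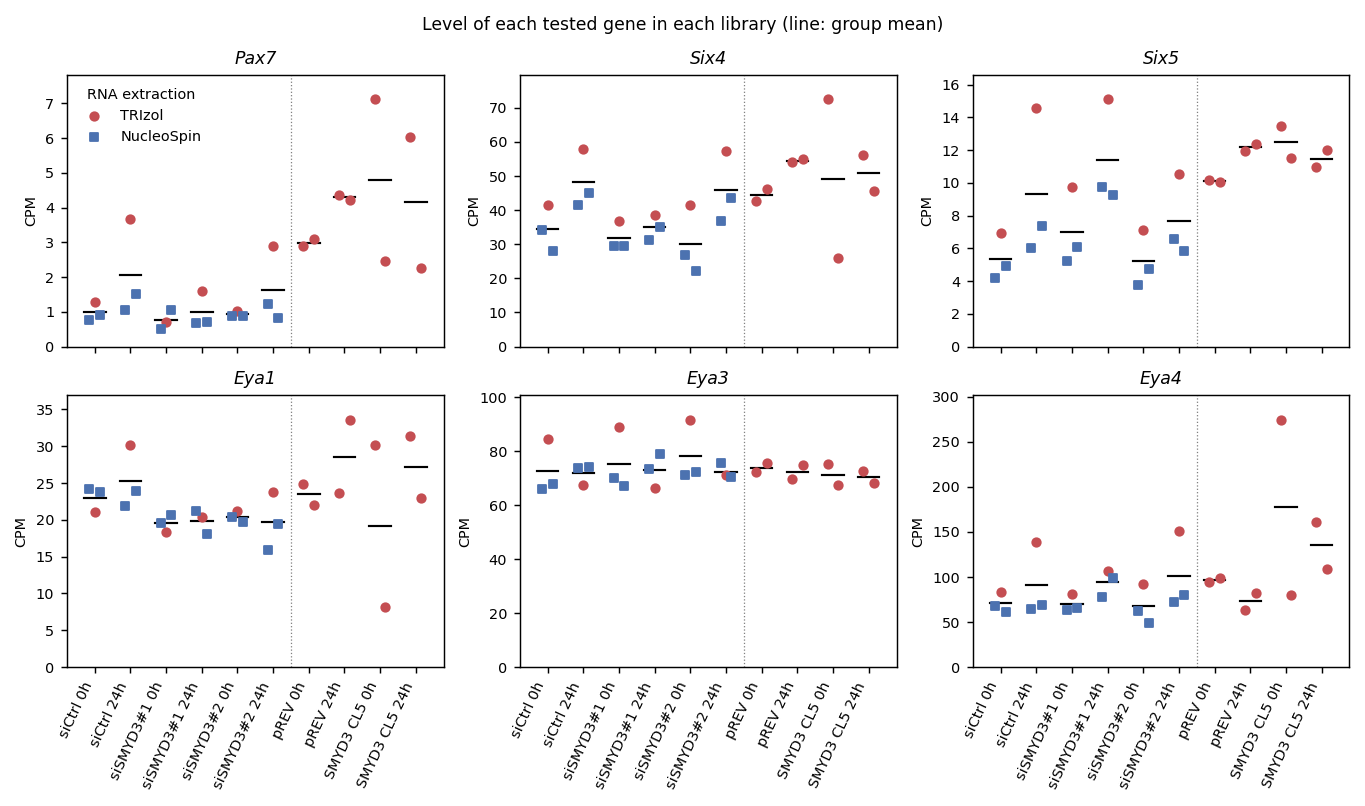
CPM of the 6 tested genes in each library (points, red circles for TRIzol and blue squares for NucleoSpin), with the group mean as a line and the siRNA groups left of the dotted line, CPM being scaled separately on its 2 sides. The TRIzol library lies above both NucleoSpin libraries in all 6 siRNA groups for Six4, Six5 and Eya4, and the SMYD3 CL5 libraries at 0 h lie far apart for Eya4 (274.5 and 80.4 CPM).

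Under siSMYD3#1 the rise of Six5 was found and that of Six4 was not past the threshold. Six5 stood at 9.74, 5.25 and 6.09 CPM at 0 h and 15.1, 9.75 and 9.27 CPM at 24 h, a rise of 0.71 (SE 0.15; edgeR adjusted p = 0.000934). Six4 gave 36.7, 29.4 and 29.4 CPM at 0 h and 38.5, 31.1 and 35.2 CPM at 24 h. Its log2 difference of 0.14 (SE 0.12) did not pass (edgeR adjusted p = 0.376). With 1 of 6 genes called, the share was below the 25.4% of all genes called in this comparison. Eya4 moved from 80.8, 62.9 and 65.6 CPM to 107, 77.3 and 98.8 CPM, a difference of 0.44 (SE 0.16; edgeR adjusted p = 0.0366). Without the extraction covariate the Six5 call was lost (0.70, edgeR adjusted p = 0.236), and in the NucleoSpin libraries alone Eya4 was called as well (0.44, edgeR adjusted p = 0.0085).

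Under siSMYD3#2 both Six-family genes rose again. Six4 went from 41.4, 26.8 and 22.2 CPM at 0 h to 36.9, 43.6 and 57.2 CPM at 24 h, the TRIzol library being the highest at each time. The rise of Six4 was 0.62 (SE 0.12; edgeR adjusted p = 0.000608). Six5 went from 7.10, 3.75 and 4.76 CPM to 6.55, 5.83 and 10.55 CPM, a rise of 0.56 (SE 0.15; edgeR adjusted p = 0.00876). For Eya4, 91.9, 61.8 and 48.9 CPM at 0 h stood against 72.5, 80.1 and 151 CPM at 24 h, and the difference of 0.56 (SE 0.16) missed the threshold (edgeR adjusted p = 0.0125), but was called by DESeq2 (0.57, adjusted p = 0.00445) and by edgeR without the low-count filter (0.56, adjusted p = 2.4e-05). The 2 calls among 6 tested genes compare with 19% of all genes. The Six5 call was lost without each of 5 of the 6 libraries in turn (0 h replicates 1 and 2 and all 3 at 24 h), with differences of 0.47 to 0.58 and edgeR adjusted p of 0.0209 to 0.0575, without the low-count filter (0.56, adjusted p = 0.0207) and in NucleoSpin libraries alone (0.53, adjusted p = 0.0312). Neither call held without the extraction covariate, at 0.61 for Six4 and 0.56 for Six5 (edgeR adjusted p of 0.112 and 0.39), nor with all 26 libraries in 1 fit, at 0.61 and 0.54 (0.0704 and 0.0188).

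Whether the change from 0 h to 24 h differed between an siRNA and siCtrl was tested as an interaction. For Six4 it was -0.34 (SE 0.17; edgeR adjusted p = 0.578) under siSMYD3#1 and 0.14 (SE 0.16; adjusted p = 0.837) under siSMYD3#2. Six5 gave -0.03 (SE 0.21) and -0.18 (SE 0.21). No tested gene of the set passed in either interaction in edgeR, while 0.215% of all genes passed for siSMYD3#1 and 0.019% for siSMYD3#2. At an unadjusted p under 0.05 there were 0 of the set, beside 1388 and 1585 of 15820 genes. DESeq2 called 0 of the set, beside 141 of 15016 and 113 of 12572 genes. The missing Six4 call under siSMYD3#1 was thus not shown to differ from siCtrl.

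**Figure D3:**
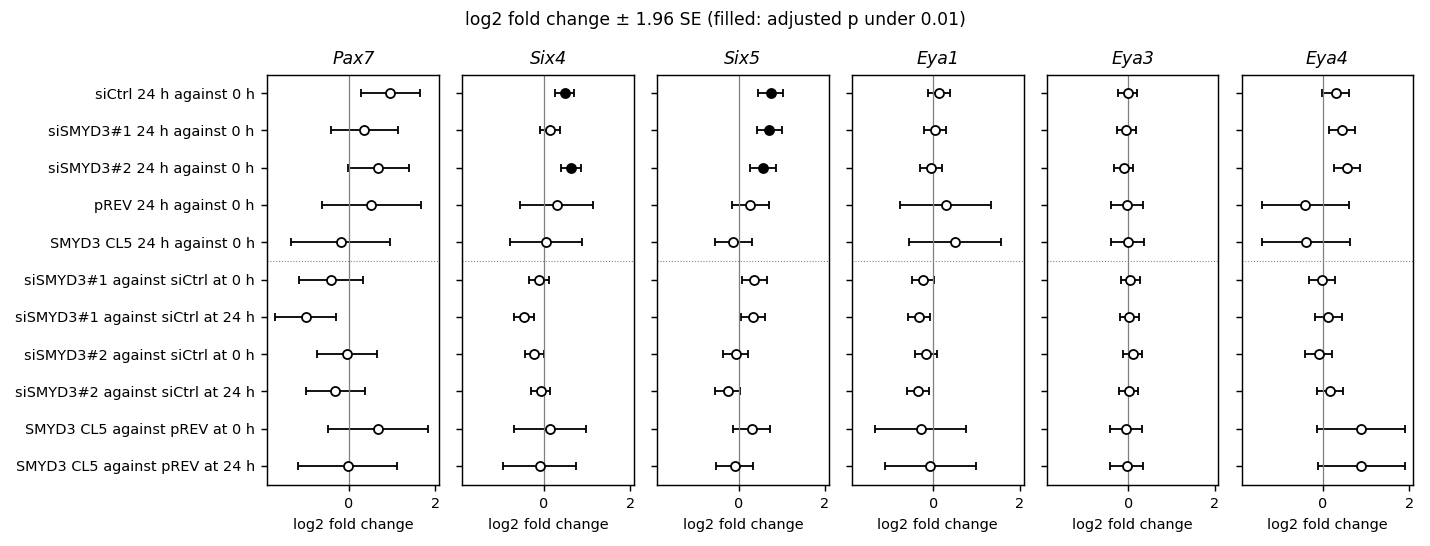
log2 fold change (horizontal axis) of the 6 tested genes in 5 comparisons of 24 h against 0 h (above the dotted line) and 6 comparisons of treatment against control, with bars for the 95% interval and filled points for an adjusted p under 0.01. The 5 filled points belong to Six4 and Six5 at 24 h in siRNA cells, and the bars are widest in the overexpression experiment.

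Levels moved with the extraction method. The TRIzol library exceeded both NucleoSpin libraries of its group in 6 of 6 groups for Six4, Six5 and Eya4, with TRIzol over mean NucleoSpin ratios of 1.16 to 1.69 for Six4, 1.52 to 2.17 for Six5 and 1.21 to 2.07 for Eya4. Pax7 did so in 5 groups, with ratios of 0.913 to 2.87. Eya3 went opposite ways by time: its TRIzol library was the highest in all 3 groups at 0 h, with ratios of 1.26 to 1.29, and at 24 h its ratios were 0.871 to 0.975. Within TRIzol libraries Eya3 thus stood lower at 24 h than at 0 h, by log2 ratios of -0.32 in siCtrl, -0.42 in siSMYD3#1 and -0.37 in siSMYD3#2, whereas the NucleoSpin ratios were 0.14, 0.15 and 0.03. Extraction is named in the sample labels and, in the study's sample list, runs together with cell passage, so the effects of these cannot be told apart. The summed level of the myoblast markers Myod1, Myf5, Des and Cdh15 also differed between libraries of a group, from 228 to 1300 CPM in siCtrl at 0 h and from 554 to 1910 CPM at 24 h, and its part in the results was not tested.

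Within extraction methods the Six4 rise in siCtrl was of like size and the Pax7 rise was not. In siCtrl, the log2 ratio of 24 h over 0 h was 0.48 in TRIzol and 0.48 in NucleoSpin libraries for Six4, and 1.08 and 0.56 for Six5. Six4 gave 0.069 and 0.175 under siSMYD3#1 and 0.468 and 0.714 under siSMYD3#2. For Pax7 it was 1.51 in TRIzol and 0.61 in NucleoSpin libraries, with 1.17 and -0.16 under siSMYD3#1 and 1.52 and 0.18 under siSMYD3#2. Eya4 gave 0.73 and 0.06 in siCtrl, 0.40 and 0.46 under siSMYD3#1 and 0.71 and 0.46 under siSMYD3#2. Eya1 gave 0.52 and -0.07 in siCtrl, 0.15 and -0.03 under siSMYD3#1 and 0.16 and -0.18 under siSMYD3#2. Each TRIzol value rests on 1 library per time, so no test was made.

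**Figure D4:**
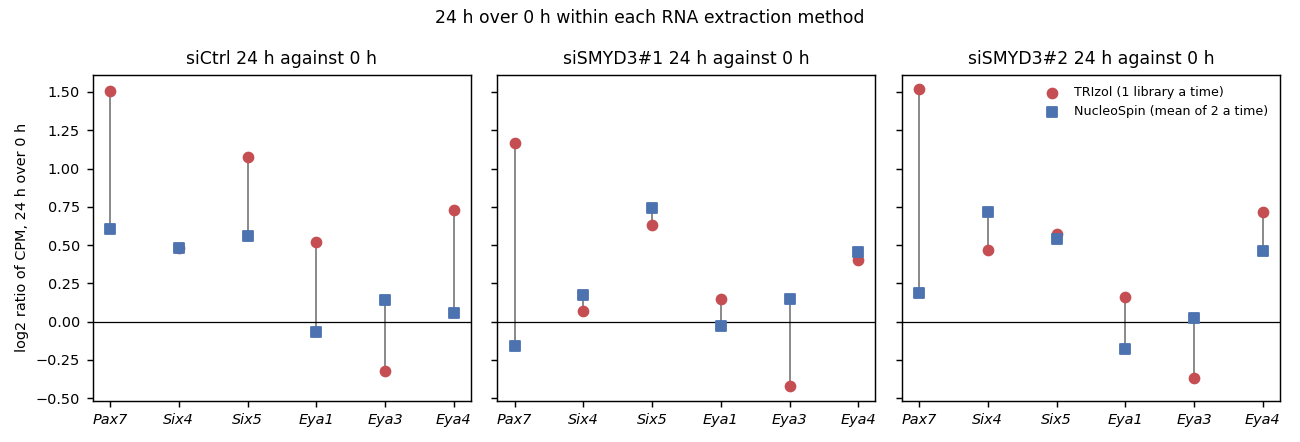
log2 ratio of CPM at 24 h over 0 h (vertical axis) for the 6 tested genes, taken within TRIzol libraries (circles, 1 per time) and within NucleoSpin libraries (squares, mean of 2 per time), in siCtrl, siSMYD3#1 and siSMYD3#2 cells. The methods coincide for Six4 in siCtrl (0.48 and 0.48), are farthest apart for Pax7, and lie on opposite sides of 0 for Eya1 and Eya3 in all 3.

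Against siCtrl, no tested gene of the set passed the threshold in edgeR under either siRNA, and DESeq2 called 1, Six4 at 24 h under siSMYD3#1. At 0 h, edgeR called 0 of 6 for siSMYD3#1, with 1 at an unadjusted p under 0.05, and 0 for siSMYD3#2, with 0 at that level, beside 1.43% and 0.531% of all genes, and DESeq2 called 0 in both. DESeq2 called 528 of 11961 and 210 of 11350 genes at 0 h. At the unadjusted level 2196 and 1596 of all 15820 genes passed at 0 h. The 1 gene was Six5, at 0.37 (SE 0.15; edgeR adjusted p = 0.238) under siSMYD3#1. At 24 h, edgeR called 0 of 6 in each comparison, with 4 and 1 at an unadjusted p under 0.05, beside 5.85% of all genes called for siSMYD3#1 and 3.7% for siSMYD3#2. At the unadjusted level 3815 and 3530 of all 15820 genes passed. DESeq2 called 1 of the set for siSMYD3#1 and 0 for siSMYD3#2, beside 1344 of 16237 and 1044 of 15016 genes.

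The nearest to a call at 24 h was Six4 under siSMYD3#1. Its 3 libraries, at 38.5, 31.1 and 35.2 CPM, all lay below the 58.0, 41.4 and 45.1 CPM of siCtrl, a log2 difference of -0.45 (SE 0.12, interval -0.68 to -0.23; edgeR adjusted p = 0.0152). The log2 ratios within extraction methods were -0.59 in TRIzol and -0.38 in NucleoSpin libraries. DESeq2 called it (-0.45, adjusted p = 0.00438), as did edgeR without a filter on low counts (-0.45, adjusted p = 0.00822) and without siSMYD3#1 24 h replicate 3 (-0.54, adjusted p = 0.00966). Under siSMYD3#2, at 36.9, 43.6 and 57.2 CPM, the Six4 groups overlapped and the difference was -0.07 (SE 0.12, interval -0.30 to 0.15).

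Eya1 stood lower at 24 h under both siRNAs without passing. Its siSMYD3#1 libraries, at 20.4, 21.3 and 18.04 CPM, lay below all 3 of siCtrl, and the difference was -0.34 (SE 0.13; edgeR adjusted p = 0.111). In siSMYD3#2, at 16.0, 19.5 and 23.7 CPM, Eya1 differed by -0.36 (SE 0.13; edgeR adjusted p = 0.102), with overlapping groups. These comparisons share the siCtrl libraries. At 0 h Eya1 already differed from siCtrl by -0.24 (SE 0.13; edgeR adjusted p = 0.443) under siSMYD3#1 and -0.18 (SE 0.13; edgeR adjusted p = 0.73) under siSMYD3#2. Its interactions of siRNA with time were -0.097 and -0.181 (SE 0.185 each) and did not pass, so no difference particular to 24 h was shown. Pax7 showed the largest estimate of the set, -1.004 (SE 0.36; edgeR adjusted p = 0.0827) under siSMYD3#1, with 1.59, 0.689 and 0.708 CPM at 24 h and 10 to 52 counts per library. Under siSMYD3#2 the Pax7 difference was -0.32 (SE 0.35). For Eya3 the intervals at 24 h were -0.20 to 0.25 under siSMYD3#1 and -0.21 to 0.23 under siSMYD3#2, and for Eya4 -0.19 to 0.43 and -0.15 to 0.47.

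The siRNAs were also compared with each other at 24 h, since Smyd3 RNA differed between them by 1.27 (SE 0.17; edgeR adjusted p = 0.000176). Six5 stood at 15.1, 9.75 and 9.27 CPM under siSMYD3#1 and 6.55, 5.83 and 10.55 CPM under siSMYD3#2, a log2 difference of 0.59 (SE 0.15; edgeR adjusted p = 0.0182). Six4 differed the other way, by -0.38 (SE 0.12; edgeR adjusted p = 0.0514). In edgeR 0 of 6 genes passed, with 2 at an unadjusted p under 0.05, beside 3.36% of all genes called and 3513 of 15820 at the unadjusted level. DESeq2 called Six5 (0.58, adjusted p = 0.00501), beside 1021 of 13794 genes.

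In the overexpression experiment the SMYD3 CL5 replicates lay far apart at 0 h for Pax7, Six4, Eya1 and Eya4, with ratios of 2.89, 2.8, 3.71 and 3.41 between them. At 24 h only Pax7 stayed so far apart among the tested genes, at 2.67, and the other ratios were 1.07 to 1.49. Eya4 stood at 274.5 and 80.4 CPM in SMYD3 CL5 at 0 h, against 94.9 and 98.4 CPM in pREV. At 24 h it stood at 161.5 and 108.5 CPM, both above the 63.3 and 82.5 CPM of pREV. The Eya4 differences of 0.88 (SE 0.52) and 0.89 (SE 0.52) did not pass, with edgeR adjusted p of 0.412 and 0.548. Six4 spread likewise, with 72.5 and 25.9 CPM in SMYD3 CL5 at 0 h around the 42.6 and 46.1 CPM of pREV, and 56.3 and 45.55 CPM at 24 h. Pax7, at 7.12 and 2.46 CPM at 0 h and 6.04 and 2.26 CPM at 24 h, surrounded the pREV values of 4.37 and 4.22 CPM at 24 h.

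Eya1 rested on 1 library. It stood at 30.2 and 8.14 CPM in SMYD3 CL5 at 0 h and at 31.35 and 23.0 CPM at 24 h, beside 24.9 and 22.1 CPM in pREV at 0 h and 23.6 and 33.6 CPM at 24 h. The difference from pREV at 0 h was -0.29 (SE 0.54), and without SMYD3 CL5 0 h replicate 1 it became -1.47. A call in such a fit assumes that the lone library varies like the other groups. Over all alternatives this difference ran from -1.47 to 0.391, so its sign was not fixed, and that of Six4 ran from -0.719 to 0.737. Without SMYD3 CL5 0 h replicate 1 the 24 h against 0 h difference of Eya1 in SMYD3 CL5 became 1.72 from 0.50 (SE 0.54). Its lowest value over the alternatives was -0.158. By contrast Eya3, at 75.2 and 67.3 CPM at 0 h and 72.8 and 68.3 CPM at 24 h, and Six5, at 13.5 and 11.52 CPM and 10.95 and 12.02 CPM, had close replicates. Their differences from pREV at 24 h were -0.04 (SE 0.19) and -0.09 (SE 0.22).

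The summed level of the 4 myoblast markers was 846 to 1490 CPM in SMYD3 CL5 and 557 to 620 CPM in pREV at 0 h. At 24 h these sums overlapped, at 940 to 1600 and 897 to 1000 CPM. Single markers went both ways. At 0 h Myf5 averaged 11.6 CPM in SMYD3 CL5 and 75 CPM in pREV, and Myod1 99.96 and 28.97 CPM. The part of these marker levels in the values of the set was not tested. Between SMYD3 CL5 and pREV, edgeR called 0 of 6 genes at each time, beside 1.07% of all genes at 0 h and 0.964% at 24 h. At an unadjusted p under 0.05 there were 0 of the set, beside 3258 and 2488 of 17835 genes. DESeq2 called 0 of the set, beside 988 of 19123 and 836 of 20999 genes. In pREV, in SMYD3 CL5 and in their interaction, 24 h against 0 h gave 0 calls in the set and 0% of 17835 genes in edgeR, with 1256, 1137 and 312 genes at an unadjusted p under 0.05. DESeq2 called 112, 96 and 2 genes there, none of them of the set. In pREV the Six5 libraries stood at 10.2 and 10.1 CPM at 0 h and 11.97 and 12.4 CPM at 24 h, and Six4 at 42.6 and 46.1 against 54.0 and 54.9 CPM, with differences of 0.27 (SE 0.22) and 0.30 (SE 0.43). Pax7 was likewise higher in both pREV libraries at 24 h, with 4.37 and 4.22 CPM against 2.89 and 3.09 CPM (0.52, SE 0.59). Eya4 went the other way, with 63.3 and 82.5 CPM at 24 h below 94.9 and 98.4 CPM at 0 h (-0.41, SE 0.52).

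Eya3 and Eya4 made up most of the Eya signal per kb. In siCtrl at 0 h, Eya3 took 55.1% (range 53.3 to 56.3%, n = 3) of the summed CPM per kb of the 4 Eya genes, Eya4 32.1% and Eya1 12.8%. At 24 h in siCtrl the shares were 50.8%, 36.5% and 12.6%, with Eya3 ranging from 39.1 to 57.5%. In the TRIzol library at 24 h, Eya4 stood above Eya3 in siCtrl (48.1 against 39.1%) and in siSMYD3#2 (50.6 against 39.8%). In siSMYD3#1 that library had Eya4 at 44.1% and Eya3 at 45.7%. In SMYD3 CL5, Eya4 took 51.3% at 0 h (62.9 and 39.6% in its replicates) and 46.8% at 24 h (50.4 and 43.3%), against 38.9% and 31.8% in pREV. In replicate 2 of SMYD3 CL5, Eya3 stood above Eya4, with 55.3% at 0 h and 45.5% at 24 h. Eya2 took at most 0.338% in any library. These shares are descriptions, with no test.

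**Figure D5:**
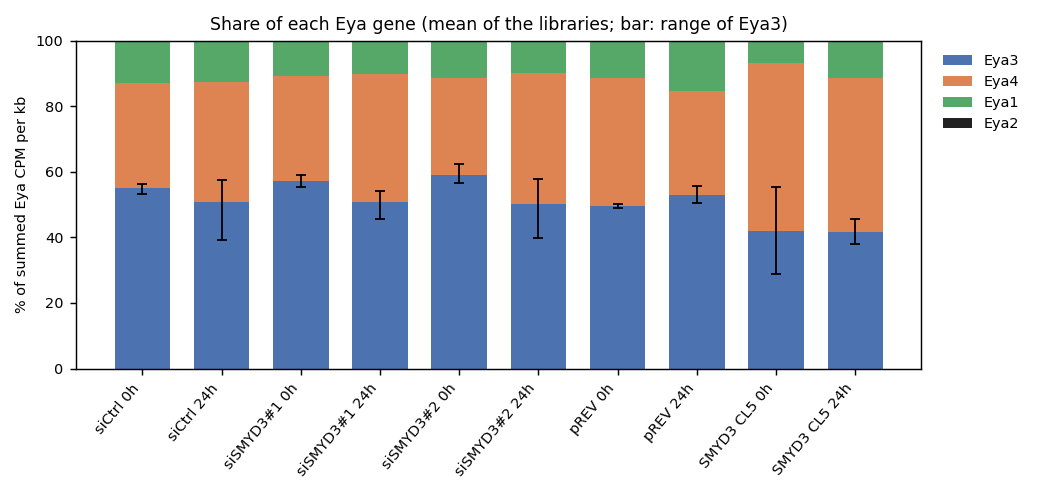
Share of each Eya gene in the summed Eya CPM per kb (vertical axis, percent), as the mean over the libraries of each group, with a bar for the lowest and highest share of Eya3. Eya3 leads in the siRNA and pREV groups (49.6 to 58.9%), and the Eya4 mean is higher in SMYD3 CL5 (51.3% at 0 h and 46.8% at 24 h), through replicate 1 at each time.

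The genes around the set in the pathway were taken from lists. Of 9 other Pax- and Six-family genes, 2 could be tested in the siRNA libraries and 0 were called at 24 h against 0 h in siCtrl. Among 7 partners and corepressors of the Dach, Sobp and Tle families, 5 were tested and 2 rose, with a median of -0.01: Sobp, which encodes a Six-binding protein, by 1.38 (SE 0.22; edgeR adjusted p = 6.54e-05) and Tle2, a Groucho corepressor, by 0.84 (SE 0.17; edgeR adjusted p = 0.000535). Over all 15820 tested genes, for comparison with these lists, 2309 rose and 2346 fell, with a median of 0.03. Tle1, Tle3 and Tle4, named after their values were seen, gave -0.07, -0.01 and -0.19 and did not pass, and neither Dach gene had enough reads to be tested.

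Genes reported as targets of Pax-, Six- or Eya-family factors moved both ways. Of 16, 12 were tested, 3 rose and 4 fell in siCtrl, with a median of -0.11. Myog rose by 7.25 (SE 0.38; edgeR adjusted p = 8.45e-09) and Igfbp5, a secreted IGF-binding protein, by 3.59 (SE 0.41; edgeR adjusted p = 1.55e-05). Id3, an inhibitor of myogenic bHLH factors, fell by 2.69 (SE 0.46), and Ccnd1, which encodes cyclin D1, fell by 0.998 (SE 0.20), with edgeR adjusted p of 0.000519 and 0.00108. The others, named after their values were seen, were Fgfr4 (up by 2.16), Gdnf (-0.81) and Ezr (-0.78). Myf5 and Myod1 gave 0.31 (SE 0.11) and -0.25 (SE 0.29), with edgeR adjusted p of 0.0228 and 0.508. At 24 h siSMYD3#1 against siCtrl called 3 of the 12, chosen here for their calls: Myog fell by 3.59 (SE 0.30) and Met, the receptor of hepatocyte growth factor, by 0.54 (SE 0.13), while Gdnf rose by 1.17 (SE 0.21). Under siSMYD3#2, 1 was called, Myog, which fell by 1.81 (SE 0.28; edgeR adjusted p = 0.00125).

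Of the satellite cell and myoblast genes, 14 of 15 were tested, 8 rose and 1 fell at 24 h in siCtrl, with a median of 0.91, beside 29.4% of all genes called in either direction. The largest rises among genes of 100 or more counts were Cxcr4, a chemokine receptor, at 1.48 (SE 0.33), Cdh15, the muscle cadherin, at 1.31 (SE 0.25), Itga7, a laminin receptor chain, at 1.097 (SE 0.11) and Msc, a bHLH repressor, at 0.98 (SE 0.26). Hey1, a Notch target named after its value was seen, fell by 0.69 (SE 0.15). Of the 10 differentiation genes 9 rose, with a median of 6.08, led by Myh3 (9.57, SE 0.53) and Ckm (9.53, SE 0.40). Against siCtrl at 24 h, 8 of these 10 fell under each siRNA, with medians of -3.11 for siSMYD3#1 and -1.97 for siSMYD3#2, beside 5.85% and 3.7% of all genes called, where the medians over the tested Pax-, Six- and Eya-family genes were -0.16 and -0.16. In SMYD3 CL5 at 0 h, Myog stood at 15.9 and 81.9 CPM against 0.283 and 0.535 CPM in pREV, higher by 6.86 (SE 0.89; edgeR adjusted p = 0.00885). At 24 h the Myog difference of 3.82 (SE 0.73) did not pass (edgeR adjusted p = 0.0376).

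Genes with the most similar pattern were sought over the 18 siRNA libraries, by Pearson's r of log2 CPM after the mean of each extraction method was removed, among 10816 genes with 100 or more counts on average. Six4 was closest to 1700020I14Rik (r = 0.946), Trp53inp1 (0.942) and Rb1 (0.935), and Six5 to Mxra8 (0.968), Ech1 (0.956) and Tmc6 (0.956). For Eya1 these were Lmo7 (0.825), Chn1 (0.816) and Slc22a15 (0.792), for Eya3 Pmm1 (0.9), Asns (0.897) and Ebf1 (0.885), and for Eya4 AW549877 (0.952), Mtmr6 (0.935) and Sppl2a (0.931). Without removing the extraction means, several of these fell away, as Asns with Eya3 (r = 0.003) and Mtmr6 with Eya4 (r = -0.02). Within the set, Six4 and Eya4 gave r = 0.701, Six5 and Eya4 0.648, Six4 and Six5 0.388, and Eya1 and Eya3 -0.545. The 18 libraries share 6 groups and their depth, so these values describe and carry no p.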

How the data were processed

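RNA-Seq of C2C12 cells gave 26 libraries (stranded poly(A) TruSeq, paired-end), 18 with siRNA and 8 for overexpression. The authors deposited raw counts per Ensembl gene, made with HISAT2 2.1.0 on GRCm38 and featureCounts of Subread 1.6.3 after FastQC 0.11.5. The strand setting of counting is not given in the sources used here. No 2 libraries held identical values.

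Symbols, coordinates and merged exon lengths came from GENCODE M21, which held 54495 of the 55341 gene IDs, and promoters from RefSeq (GRCm38.p6). No exon of the set overlaps an exon of another gene, and overlap within introns was not examined. Counts were fitted in R 4.3.3 with edgeR 4.0.16 (TMM, filterByExpr, robust quasi-likelihood test, Benjamini-Hochberg adjustment over all tested genes, threshold 0.01). For the 18 siRNA libraries extraction was a covariate, and 15820 genes were fitted at a common dispersion of 0.0159. The 8 overexpression libraries, with 17835 genes, had 0.0903. SE was taken as the log2 fold change over the root of F, and 95% intervals assume a normal error. Totals ran from 14315193 to 67853386 counts, and counting intervals and floors (3 counts) cover counting error only. The fits were also run on simulated counts, drawn without an extraction effect and with the same dispersion in both experiments. That run therefore says nothing about extraction or about the wider spread of the overexpression libraries.

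Alternatives were DESeq2 1.42.0, RLE scaling, no low-count filter, a threshold of 0.05, all 26 libraries together, no extraction covariate, NucleoSpin libraries alone, a replicate block, and each library left out. The genes and lists were chosen with earlier results of these data known. From each list, Myf5, Myod1 and Myog and up to 4 called genes with the largest change in siCtrl among those with at least 100 counts on average were named, others being marked as named after their values were seen.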

Additional observations from a re-analysis of the deposited data

How the results depend on the processing

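Of 1236 values of single genes under alternatives, 1200 kept their side of the threshold, 21 lost a call, 15 gained one and 0 reversed, while 106 changed sign without a call in either fit. Counts of genes of the set called at 24 h against 0 h were 2 in siCtrl, 1 in siSMYD3#1 and 2 in siSMYD3#2. These stood beside 4655, 4016 and 3004 calls among all 15820 genes tested. Without the extraction covariate the counts of the set were 0, 0 and 0, beside 1676, 1053 and 583 of 15820 genes. With all 26 libraries in 1 fit the set gave 1 in siCtrl and 0 in siSMYD3#2, beside 2838 and 1264 of 17479 genes. With NucleoSpin libraries alone the set gave 1, 2 and 1, beside 5061, 5294 and 3984 of 15222 genes. For siSMYD3#1 the count was 2 at a threshold of 0.05 and 2 without the low-count filter, beside 6043 of 15820 and 4475 of 31510 genes. At 0.05 the count was 3 in siCtrl (with Pax7) and 3 in siSMYD3#2 (with Eya4), beside 6642 and 5069 of 15820 genes. In siSMYD3#2 DESeq2 also gave 3, beside 3660 of 16237 genes. Without the filter Eya4 took the place of Six5 there, beside 3673 of 31510 genes called. At 24 h, siSMYD3#1 against siCtrl gave 1 at 0.05, 1 by DESeq2 and 1 without the filter. The calls over all genes were 1778 of 15820, 1344 of 16237 and 1496 of 31510. The comparison of siSMYD3#1 with siSMYD3#2 gave 1 at 0.05 and 1 by DESeq2, beside 1349 of 15820 and 1021 of 13794 genes. Leaving out each library in turn gave 0 to 2 calls in siCtrl, 1 to 2 in siSMYD3#2, and 0 to 1 for siSMYD3#1 against siCtrl at 24 h, for SMYD3 CL5 at 24 h against 0 h and for SMYD3 CL5 against pREV at 0 h, where a lone library is assumed to vary like the other groups. The Smyd3 difference of siSMYD3#2 at 0 h was -1.43 without the extraction covariate (edgeR adjusted p = 0.0113). Calls over all genes with a library left out are not given here. The causes of these shifts were not tested.

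The sample labels carry no replicate numbers. With the study's own numbers as a replicate block, the counts of calls in the set did not change from 2, 1 and 2. Same-numbered siRNA libraries deviated together in 45 of 45 pairs (median r = 0.571), but within NucleoSpin libraries in 6 of 30 (median -0.003), so the numbers mainly carry extraction. Depth limits Pax3 and Eya2, which did not pass the low-count filter, and Six2 was at 0 throughout.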
